A study of Mus musculus with 9 samples.

Results

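The genes of ubiquitin-conjugating enzymes (Ube2), cullins (Cul) and F-box proteins (Fbxo, Fbxl and Fbxw) were examined for binding of the histone H2A deubiquitinase BAP1 at their starts. They were chosen by symbol alone, as the protein-coding genes of GENCODE M1 whose symbol starts with Ube2, Fbxo or Fbxl, or with Cul or Fbxw and a number, which gave 120 of 22367 protein-coding genes. These were 36 Ube2, 8 Cul, 37 Fbxo, 18 Fbxl and 21 Fbxw genes. The prefix is a naming rule, so a gene such as Ube2cbp entered by its name and not by a tested activity.

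BAP1 binding was measured by ChIP-Seq in Ba/F3, an established IL-3-dependent mouse cell line of the B cell lineage. In 1 of the samples behind the data, endogenous BAP1 was precipitated with the anti-BAP1 antibody D1W9B from WT Ba/F3 cells. In the other, the anti-FLAG M2 antibody was used on Ba/F3 cells that stably carry murine BAP1 with a triple FLAG tag and were kept under puromycin, and the promoter that drives this transgene was not given in the sources used here. Both entered 1 deposited list of 13164 binding sites (peaks), each 200 bp wide, and this list does not say which antibody or line a peak came from. Signal per sample was not analysed here. The 4 input DNA samples and the 3 samples of H2AK119ub, the ubiquitinated histone that BAP1 acts on, from WT and Bap1 knockout Ba/F3 cells were not analysed here on their own. The list holds no peak height and no replicate, its read depth is unknown, and peaks under the threshold of the caller are not in it. A gene is therefore said to have or to lack a listed peak. Intervals are 95% Wilson intervals, which cover counting error only, and genes are not replicates of a condition, so no test was run over them. RNA levels of these genes in Ba/F3 were not analysed here.

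Ubiquitin reaches a protein in a cascade. An activating enzyme (E1) charges a conjugating enzyme (E2, mostly Ube2 genes) with ubiquitin or a ubiquitin-like protein, and a ligase (E3) brings the E2 to the substrate. Cullins are the scaffolds of the largest group of ligases, the cullin-RING ligases, which carry a RING protein and the E2 at one end and a substrate receptor at the other, and which are switched on by attachment of NEDD8 to the cullin. F-box proteins are the receptors that join Cul1 through the adaptor Skp1, and they are named by their substrate-binding part: Fbxw with WD40 repeats, Fbxl with leucine-rich repeats and Fbxo with other or unknown domains. In B cells the system is best known for timing the cell cycle and for NF-kB signalling, where beta-TrCP-type F-box proteins act. BAP1 works in the opposite direction and removes ubiquitin from histone H2A at chromatin.

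The sequences of 5 peaks are shown first, because in each subfamily they are the ones nearest to a transcription start site (TSS), except in Cul, where Cul2 lies nearer still and its sequence is not shown. They are read from mm9 in the direction of the gene, and capitals mark the motif words of ETS (CCGGAAG), NRF1 (GCGCATGC), YY1 (AAGATGGC), SP/KLF (GGGCGGG), NFY (CCAAT), CRE (TGACGTCA), KAISO-like (TCTCGCGA), E-box (CACGTG), ZNF143-like (CTACAATTC) and TATA-box (TATAAA) factors on either strand. A word may overlap another one.
Ube2v2 peak, chr16:15594472-15594671, minus strand: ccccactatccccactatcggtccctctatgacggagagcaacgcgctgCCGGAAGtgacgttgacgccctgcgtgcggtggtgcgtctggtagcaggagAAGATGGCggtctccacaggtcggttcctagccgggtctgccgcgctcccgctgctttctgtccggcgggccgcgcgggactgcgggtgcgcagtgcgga
Cul1 peak, chr6:47404200-47404399, plus strand: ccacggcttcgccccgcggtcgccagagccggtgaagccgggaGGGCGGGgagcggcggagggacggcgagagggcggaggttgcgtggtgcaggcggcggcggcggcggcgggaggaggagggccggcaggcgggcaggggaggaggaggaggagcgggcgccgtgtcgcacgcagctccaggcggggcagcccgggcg
Fbxo22 peak, chr9:55056691-55056890, plus strand: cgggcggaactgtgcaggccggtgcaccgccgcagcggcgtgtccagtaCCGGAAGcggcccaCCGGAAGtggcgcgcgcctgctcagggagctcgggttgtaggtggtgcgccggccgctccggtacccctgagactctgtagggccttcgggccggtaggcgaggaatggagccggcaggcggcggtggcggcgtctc
Fbxl5 peak, chr5:44173291-44173490, minus strand: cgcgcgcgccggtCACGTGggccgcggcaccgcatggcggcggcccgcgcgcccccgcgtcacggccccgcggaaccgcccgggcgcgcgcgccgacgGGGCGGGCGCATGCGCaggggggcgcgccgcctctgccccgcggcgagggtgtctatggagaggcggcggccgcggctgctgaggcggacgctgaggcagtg
Fbxw11 peak, chr11:32542689-32542888, plus strand: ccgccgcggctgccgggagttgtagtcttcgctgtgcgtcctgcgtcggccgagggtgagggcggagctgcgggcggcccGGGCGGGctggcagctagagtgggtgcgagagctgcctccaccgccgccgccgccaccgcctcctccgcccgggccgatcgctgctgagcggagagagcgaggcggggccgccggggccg
These 5 peaks were rich in G and C, from 68.0% in Ube2v2 to 84.0% in Fbxl5, and held 24 to 42 CpG dinucleotides each. Ube2v2 carried an ETS and a YY1 word, and Fbxo22 carried the ETS word at 2 places. In the Fbxl5 peak, the SP/KLF word and the NRF1 word overlap in 1 run of capitals, and an E-box word lies before them. The Cul1 and Fbxw11 peaks held the SP/KLF word alone.

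A gene-proximal peak, one whose middle lay within 1 kb of any annotated TSS of the gene, was present at 82 of the 120 genes, 68.3% (59.6 to 76.0%). Over all protein-coding genes the share was 39.6% (8850 of 22367). Ube2 genes (28 of 36, 77.8%, 61.9 to 88.3%), Cul genes (7 of 8, 87.5%, 52.9 to 97.8%), Fbxo genes (27 of 37, 73.0%, 57.0 to 84.6%) and Fbxl genes (14 of 18, 77.8%, 54.8 to 91.0%) each had an interval above that background. With 1 TSS per gene the Cul share was 62.5% and its interval, 30.6 to 86.3%, included the matching background of 37.6%. The intervals of these subfamilies overlapped one another, so no order among them could be read at these numbers of genes. Fbxw genes stood below them, with 6 of 21 (28.6%, 13.8 to 50.0%), and split by position in the genome. None of the 12 Fbxw genes that lie in tandem on chromosome 9 had a peak, which allows a share of up to 25.0%. All 12 promoters are poor in CpG dinucleotides, with a ratio of observed over expected under 0.6. Of protein-coding genes with such promoters 11.0% had a peak, a share within that limit. The 12 promoters also resemble one another closely, so these genes are not independent counts. Of the 9 other Fbxw genes, 6 had a peak (66.7%, 35.4 to 87.9%), an interval that includes the background of all protein-coding genes. Without the tandem genes, 82 of 108 members had a peak (75.9%, 67.1 to 83.0%).

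**Figure D1:**
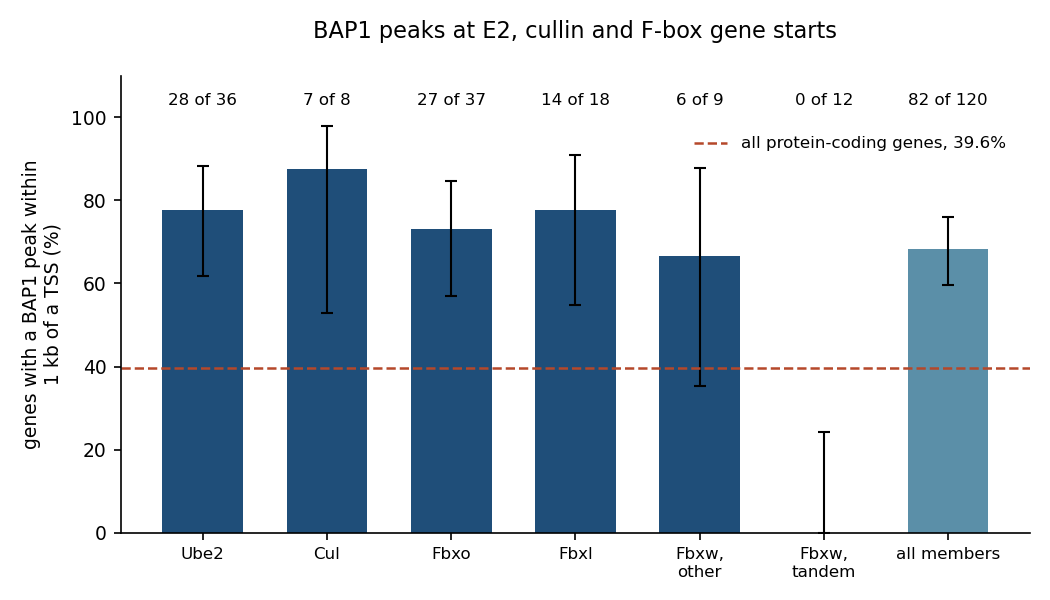
Share of genes with a BAP1 peak within 1 kb of a TSS in each subfamily (bars, in percent), with 95% Wilson intervals (lines) and the number of genes above each bar. The dashed line is the share over all protein-coding genes, 39.6%. The Ube2, Cul, Fbxo and Fbxl bars stand between 73.0 and 87.5%, and the tandem Fbxw bar is at 0.

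Among the E2 genes, both mouse homologues of yeast Rad6, which ubiquitinate histone H2B and PCNA, had a peak, its middle lying 79 bp upstream of the TSS at Ube2a and 9 bp downstream at Ube2b. The 3 broadly acting E2s Ube2d1, Ube2d2 and Ube2d3 had peaks at 43, 60 and 34 bp upstream. Ube2n, which makes lysine 63-linked chains together with Ube2v1 or Ube2v2, had its peak 226 bp upstream, and its partners had theirs 20 bp downstream (Ube2v1) and 7 bp upstream (Ube2v2). The pair used by the anaphase-promoting complex, Ube2c and Ube2s, was bound at 80 and 383 bp upstream. The peak at Ube2t, the E2 of the Fanconi anaemia pathway, lay 98 bp upstream. For Ube2o, an E2 known to ubiquitinate BAP1 itself, the distance was 110 bp upstream.

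The E2s of ubiquitin-like proteins differed. Ube2m and Ube2f, the E2s that load NEDD8 onto cullins, were both bound, at 78 and 33 bp upstream, and both had 2 gene-proximal peaks. By contrast, the nearest peak to Ube2l6, the E2 of the interferon-induced modifier ISG15, lay outside the gene. That peak was 4929 bp downstream of the nearest of the 4 TSSs of Ube2l6, an internal one, and 12330 bp from the outermost one.

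A gene-proximal peak was present at 77.8% of all Ube2 genes, and 4 small groups of related E2 genes held genes both with and without one. These groups were set after the values were seen. Ube2e1 and Ube2e3 had a peak, 49 bp downstream and 92 bp upstream, and Ube2e2 had none within 332659 bp, although its promoter CpG ratio of 0.989 (CpG dinucleotides observed over expected within 500 bp of the TSS) lies between those of Ube2e1 (0.846) and Ube2e3 (1.01). The peak nearest to Ube2e2 is itself one at Ube2e1. Ube2q1 had a peak at 95 bp upstream, while for Ube2q2 the nearest one lay 14139 bp away, at Fbxo22, and for Ube2ql1 69937 bp away, at Med10. The CpG ratios of these 3 genes were close in this window, at 0.883, 0.836 and 0.89. In a shorter window, from 250 bp before to 50 bp after the TSS, they were apart, at 1.1 (Ube2q1), 0.556 (Ube2q2) and 0.81 (Ube2ql1). The single-TSS genes Ube2nl and Ube2dnl, named as like Ube2n and Ube2d, had no peak within 154380 and 993456 bp, and their CpG ratios were low, at 0.339 and 0.245.

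Of the remaining Ube2 genes without a gene-proximal peak, Ube2u had its nearest one 549453 bp away. Ube2l3, an E2 of HECT and RBR ligases such as parkin, had none nearer than 6641 bp upstream of any of its 5 TSSs. Its CpG ratio depended on the TSS chosen, 0.0679 at that of the longest transcript and 0.798 at the most CpG-rich one. Altogether the 8 Ube2 genes without a peak were Ube2l3, Ube2l6, Ube2e2, Ube2q2, Ube2ql1, Ube2u, Ube2nl and Ube2dnl.

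Every canonical cullin had a peak at an annotated TSS. At Cul1, the scaffold of the F-box ligases, the nearest of 2 gene-proximal peaks lay 19 bp upstream. Cul2 and Cul5, which use elongins B and C as adaptors, had peaks at 0 and 45 bp upstream, and Cul5 had 2. Cul3, which binds BTB-domain receptors, had 3 gene-proximal peaks, the nearest 67 bp downstream. Cul4a and Cul4b, which share the adaptor Ddb1, had peaks 56 bp upstream and 22 bp downstream. The Cul4a peak also lies within 1 kb of a TSS of its neighbour Pcid2. In 2 cullins the bound TSS lay more than 1 kb inside the gene, with the peak 2897 bp from the outermost TSS in Cul5 and 11556 bp in Cul4b. When only the TSS of the longest transcript was used, Cul4b and Cul5 had no gene-proximal peak, which left 5 of 8 cullins. Cul4b had none either when only TSSs of coding transcripts were used.

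The atypical cullins Cul7 and Cul9 are close relatives that lie on the same chromosome, and they differed. Cul7, which works with Fbxw8, had a peak 26 bp upstream of a TSS. Cul9 had none nearer than 9704 bp, and that peak is the one at Srf. The CpG ratios of both promoters were alike within 500 bp of the TSS, at 0.653 and 0.647. From 250 bp before to 50 bp after the TSS they were 0.618 at Cul7 and 0.867 at Cul9. The sequences compared here are the Cul7 peak and the Cul9 promoter, from 250 bp before to 50 bp after its TSS, and both genes were picked for display after their values were seen.
Cul7 peak, chr17:46787386-46787585, plus strand: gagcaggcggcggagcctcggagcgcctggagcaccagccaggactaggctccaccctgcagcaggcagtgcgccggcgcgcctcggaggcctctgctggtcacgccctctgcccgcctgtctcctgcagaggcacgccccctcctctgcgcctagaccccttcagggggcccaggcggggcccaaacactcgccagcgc
Cul9 promoter, chr17:46683288-46683587, minus strand: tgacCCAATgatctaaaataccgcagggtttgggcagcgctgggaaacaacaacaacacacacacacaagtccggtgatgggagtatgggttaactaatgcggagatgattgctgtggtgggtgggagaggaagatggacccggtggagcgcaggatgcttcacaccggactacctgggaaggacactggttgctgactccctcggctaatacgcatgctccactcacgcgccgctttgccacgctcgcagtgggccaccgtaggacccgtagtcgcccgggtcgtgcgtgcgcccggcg
Neither stretch held the ETS, SP/KLF, NRF1 or YY1 word. The Cul7 peak had 16 CpG dinucleotides in 200 bp and held none of the 10 words, and the Cul9 promoter had 23 in 300 bp and held the NFY word, which 37.4% of RefSeq mouse promoters of this length contain.

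**Figure D2:**
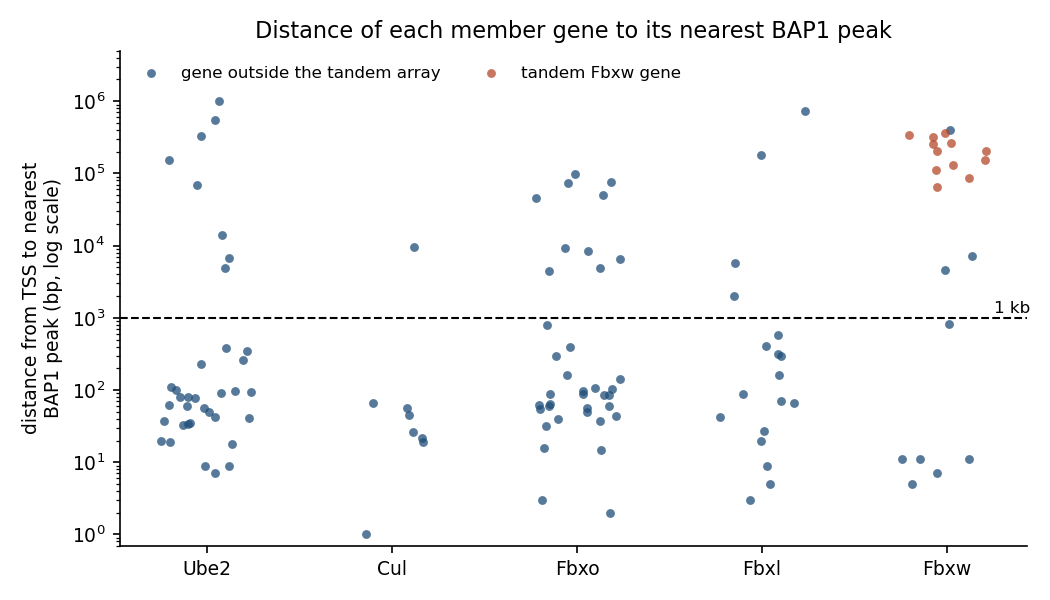
Distance from the TSS of each of the 120 genes to its nearest BAP1 peak in bp (log scale, with a distance of 0 drawn at 1), by subfamily. Each point is a gene, the dashed line marks 1 kb, and no gene lies between 811 and 2021 bp, so the genes with and without a gene-proximal peak form separate groups.

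Fbxo genes with a peak included several with known roles in cycling cells and B cells. Fbxo5, an inhibitor of the anaphase-promoting complex, had 2 gene-proximal peaks, the nearest 105 bp upstream. Its relative Fbxo43, known for the arrest of the egg, had a peak 89 bp upstream. Fbxo11, a receptor for the germinal centre factor BCL6, also had 2, the nearest 788 bp upstream of the GENCODE TSS and 34 bp upstream of the RefSeq start site. The peak of Fbxo7, which binds the proteasome regulator PI31, lay 86 bp upstream. Fbxo46 had its peak 86 bp upstream of an internal TSS, 11748 bp from the outermost one.

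The 10 Fbxo genes without a gene-proximal peak were Fbxo2, Fbxo15, Fbxo16, Fbxo17, Fbxo27, Fbxo32, Fbxo39, Fbxo40, Fbxo41 and Fbxo44. They include 4 of the 5 genes whose products share a domain that binds glycoproteins in some of them. In this group, put together after the values were seen, Fbxo6 alone had a peak, 32 bp downstream of its TSS. Its neighbours Fbxo44 and Fbxo2 on chromosome 4 had that same peak as their nearest, at 6496 and 8518 bp. Fbxo17 and Fbxo27 on chromosome 7 lay 9330 and 45179 bp from a peak shared by Mrps12 and Sars2. The CpG ratio was 0.632 at Fbxo6 and 0.55 to 0.59 at the other 4. In the shorter window, from 250 bp before to 50 bp after the TSS, the order reversed. There the ratio was 0.24 at Fbxo6 and 0.552 (Fbxo2) to 0.759 (Fbxo27) at the other 4. Fbxo32, a muscle atrophy gene also called atrogin-1, was the only Fbxo gene of CpG ratio 0.6 or more without a peak (0.707), and its nearest one lay 73344 bp away. Fbxo40, another muscle gene, had a peak in an intron 4493 bp downstream of the TSS. Fbxo15, known as a marker of embryonic stem cells, had its nearest peak at 4910 bp upstream of 1 TSS and within an intron of the gene. That peak also lies within 1 kb of a TSS of the protein-coding gene 1700034H14Rik on the opposite strand.

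Among the Fbxl genes, the iron sensor Fbxl5 had a peak 3 bp upstream of an internal TSS, with the peak 39487 bp from the outermost TSS, and it had none at the TSS of its longest transcript. Fbxl19, which has a zinc finger for unmethylated CpG, had 2, the nearest 570 bp upstream of the GENCODE TSS and 73 bp upstream of the RefSeq start site. Fbxl20 had 3, the nearest 87 bp upstream. Fbxl7 and Fbxl16 lacked a peak within 735239 and 5805 bp at CpG ratios of 0.812 and 0.896. Fbxl21, which acts on cryptochrome clock proteins, had none within 180478 bp. Fbxl22, a gene of cardiac muscle with a CpG ratio of 0.275, had a peak in an intron, 2021 bp from its TSS, the member closest to the 1 kb limit from outside.

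Outside the tandem array, the Fbxw genes with a peak were Fbxw2, Fbxw5, Fbxw7, Fbxw8, Fbxw9 and Fbxw11. Fbxw11, 1 of the beta-TrCP proteins, had 2 gene-proximal peaks, the nearest 5 bp downstream of a TSS. Fbxw5, Fbxw8 and Fbxw9 had theirs 7, 11 and 11 bp downstream, and Fbxw2 11 bp upstream. By GENCODE TSSs these 5 peaks were centred on the start, and at the RefSeq start sites the Fbxw11 peak lay 184 bp upstream and the Fbxw5 peak 75 bp downstream. Fbxw7, the receptor for cyclin E, MYC and Notch, differed, with its peak 811 bp upstream of the nearest TSS, the farthest of any bound member, and 1120 bp upstream of the RefSeq start site, outside the limit.
Fbxw7 peak, chr3:84618279-84618478, plus strand: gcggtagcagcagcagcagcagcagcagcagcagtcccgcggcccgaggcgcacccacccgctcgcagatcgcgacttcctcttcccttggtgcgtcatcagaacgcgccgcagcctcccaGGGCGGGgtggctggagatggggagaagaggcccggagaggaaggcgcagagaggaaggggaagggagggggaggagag
This peak, shown because it sits just inside the 1 kb limit, held 16 CpG dinucleotides and the SP/KLF word. Fbxw4, Fbxw10 and Fbxw17 had no gene-proximal peak. In Fbxw4, with a CpG ratio of 0.836, the nearest peak lay in an intron 7120 bp downstream. For Fbxw10 it lay 4608 bp away, at Fam18b, and for Fbxw17, a chromosome 13 gene, 396106 bp away.

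The tandem array consisted of Fbxw21, Fbxw13, Fbxw20, Fbxw14, Fbxw28, Fbxw22, Fbxw16, Fbxw19, Fbxw15, Fbxw24, Fbxw18 and Fbxw26, in this order on mm9 chr9:109041968-109648603, a stretch of 607 kb. They form a rodent cluster known for expression in oocytes. Fbxw genes were counted as tandem by position alone, when another Fbxw gene lay within 500 kb on the same chromosome. All 12 are on the minus strand, and no other protein-coding gene overlaps the stretch. It held 0 peaks. The peak before it lay 57.0 kb from its start, at Ccdc51 and Ccdc72, and the peak after it 86.6 kb from its end, at Nme6 and 3000002C10Rik. The nearest peak of the 12 genes was 65694 bp away at Fbxw21, the shortest distance, and 366716 bp away at Fbxw16, the longest.

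**Figure D3:**
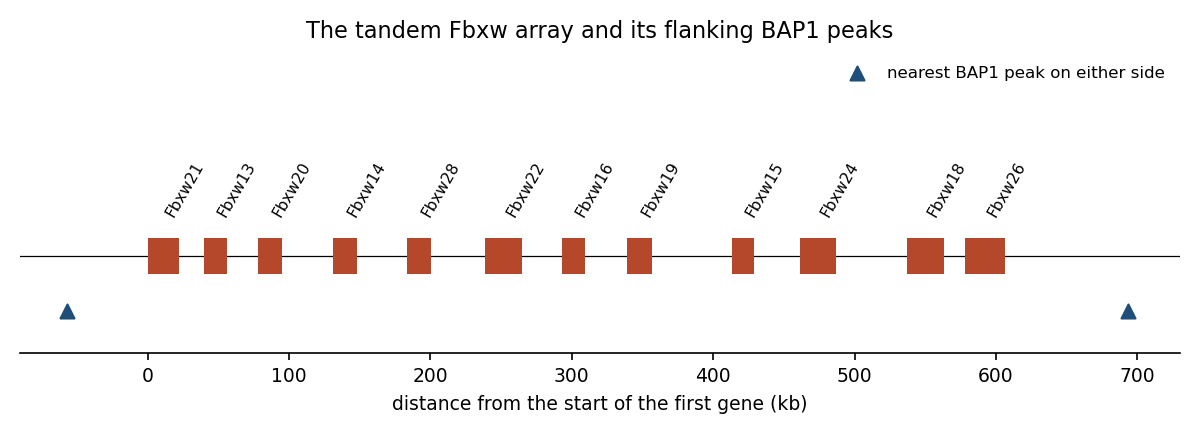
Map of the tandem Fbxw array on chromosome 9 to scale, in kb from the start of the first gene. Boxes are the 12 genes, and triangles are the nearest BAP1 peaks on either side, 57.0 kb before and 86.6 kb after the array.

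The promoters of the array were alike. Over the 66 pairs of genes, identity across the 300 bases around the TSS had a median of 87.3% (74.0 to 96.7%). Fbxw13 and Fbxw15 are printed to show this and how few CpG dinucleotides such a promoter has, 1 and 3 in 300 bases.
Fbxw13 promoter, chr9:109098440-109098739, minus strand: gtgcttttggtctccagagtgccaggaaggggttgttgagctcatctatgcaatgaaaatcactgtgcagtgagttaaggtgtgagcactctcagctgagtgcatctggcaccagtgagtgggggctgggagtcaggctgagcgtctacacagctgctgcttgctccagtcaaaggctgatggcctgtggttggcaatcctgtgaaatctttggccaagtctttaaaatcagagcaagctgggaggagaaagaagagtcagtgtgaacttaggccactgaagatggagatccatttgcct
Fbxw15 promoter, chr9:109470727-109471026, minus strand: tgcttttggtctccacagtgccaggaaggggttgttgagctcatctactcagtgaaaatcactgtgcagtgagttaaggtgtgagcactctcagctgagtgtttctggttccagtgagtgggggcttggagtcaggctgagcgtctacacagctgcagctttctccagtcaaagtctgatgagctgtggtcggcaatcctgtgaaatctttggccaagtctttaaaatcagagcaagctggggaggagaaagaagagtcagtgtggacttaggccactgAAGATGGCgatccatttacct
Among the 12 promoters, 10 held none of the 10 words, Fbxw16 held the NFY word, and Fbxw15 held the YY1 word, which 2.75% of RefSeq mouse promoters of this length contain. CpG ratios in the array ran from 0.038 to 0.147, with a median of 0.0915, lower than in each of the other Fbxw genes, the lowest of which was Fbxw10 at 0.235. The sequence around these TSSs was also partly repeated in the genome. Within 1 kb of a TSS, 50-base words that occur once in mm9 made up a median of 79.3% of positions in the array (25.3 to 87.8%), lowest in Fbxw28 (25.3%) and Fbxw14 (30.0%), against a median of 100.0% (87.7 to 100.0%) for members with a peak. How repeated reads were treated was not given in the sources used here, and the part of repeated sequence in the missing peaks was not tested.

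Members with a peak had more CpG-rich promoters than those without, with overlapping ranges. The median CpG ratio was 0.838 (0.505 to 1.08) for the 82 members with a peak and 0.346 (0.038 to 0.989) for the 38 without, or 0.547 for the 26 without one outside the tandem array. For all protein-coding genes the medians were 0.771 and 0.296. Of the CpG-rich members, those of ratio 0.6 or more, 76 of 85 had a peak (89.4%, 81.1 to 94.3%), where 71.0% of CpG-rich protein-coding genes did. Of the CpG-poor members 6 of 35 did (17.1%, 8.1 to 32.7%), or 6 of 23 outside the array (26.1%, 12.5 to 46.5%), where 11.0% of CpG-poor protein-coding genes did. The window was set at the TSS nearest the peak where there was one. When it was set at the TSS of the longest transcript for every gene instead, the CpG-rich shares were 88.9% and 70.2%.

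By subfamily, the CpG-rich genes with a peak were 28 of 31 Ube2, 7 of 8 Cul, 25 of 26 Fbxo, 11 of 14 Fbxl and 5 of 6 Fbxw genes. The 9 exceptions without a peak were Ube2ql1, Ube2e2, Ube2q2, Cul9, Fbxo32, Fbxl21, Fbxl7, Fbxl16 and Fbxw4. The 6 CpG-poor genes with one were Fbxo3, Fbxo46, Fbxl13, Fbxl18, Fbxl19 and Fbxw5, and their ratios of 0.505 to 0.595 lay close below the limit. All 5 CpG-poor Ube2 genes lacked a peak.

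**Figure D4:**
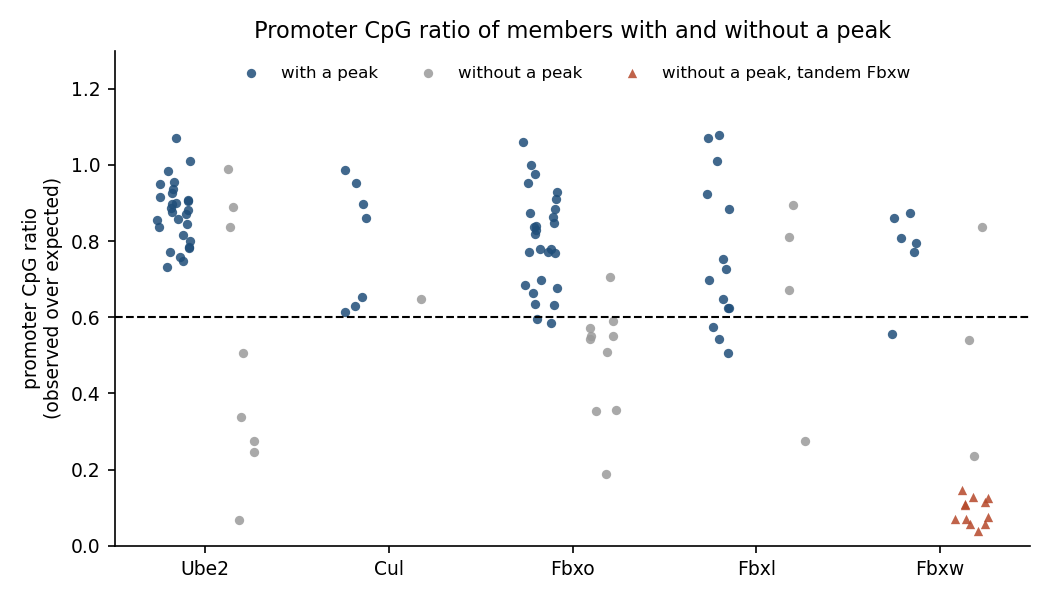
Promoter CpG ratio (observed over expected, 500 bp on either side of the TSS) of each gene, by subfamily, with blue points for genes with a gene-proximal peak, grey points for those without and triangles for the tandem Fbxw genes. The dashed line is at 0.6, and the triangles lie between 0.038 and 0.147.

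Bound members were chosen for a peak within 1 kb, and its position was read at the annotated TSS nearest to it. Closeness to a TSS is therefore partly set by this rule, which also applied to all protein-coding genes. Over the 82 bound members, the middle of the nearest peak was at a median of 42.0 bp upstream (quartiles 87.8 and 0.5 bp upstream), with Fbxw7 farthest upstream (811 bp) and Ube2cbp farthest downstream (350 bp). Over all bound protein-coding genes the median was 32.0 bp upstream. The peak middle lay within 100 bp of a TSS in 63 of the 82 (76.8%, 66.6 to 84.6%), close to the 77.8% of all bound protein-coding genes, and upstream in 61 (74.4%, 64.0 to 82.6%), beside 75.0%. By annotation, 43 of the peak middles lay outside the gene, 21 in a UTR, 11 in an intron, 6 in coding sequence and 1 in a noncoding exon. At the 1 kb limit, the members just inside were Fbxo11 (788 bp, but 34 bp from the RefSeq start site) and Fbxw7 (811 bp), and those just outside were Fbxl22 (2021 bp) and Fbxo40 (4493 bp).

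**Figure D5:**
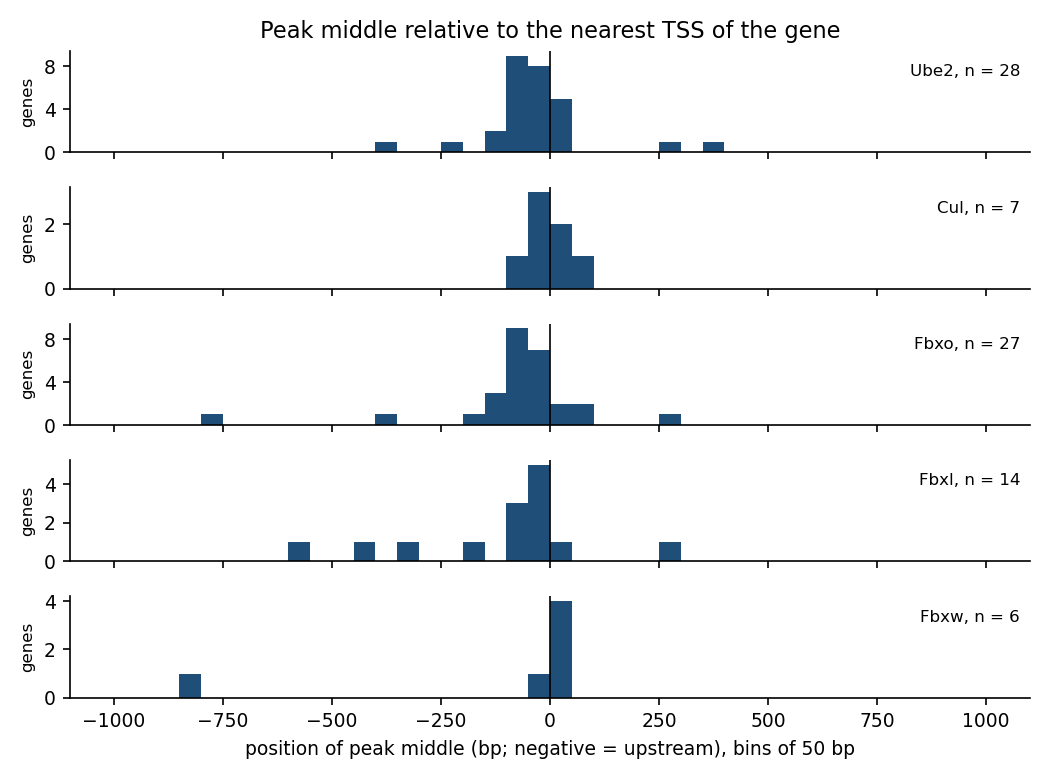
Position of the peak middle relative to the nearest TSS in bp (negative is upstream), as the number of genes per 50 bp bin, for the 82 genes with a gene-proximal peak. In the Ube2, Cul, Fbxo and Fbxl panels the tallest bins lie within 100 bp upstream of the TSS, and in the Fbxw panel 4 of the 6 genes lie just downstream.

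Of the 82 bound members, 32 had 2 or more gene-proximal peaks (39.0%, 29.2 to 49.8%), where 25.5% of bound protein-coding genes did. They were 12 Ube2, 4 Cul, 9 Fbxo, 6 Fbxl and 1 Fbxw genes. Besides those given above, they included Ube2b, Ube2d3, Ube2e1, Ube2e3, Ube2g1, Ube2j1, Ube2k, Ube2r2, Ube2s, Ube2v1, Cul4a, Fbxo8, Fbxo18, Fbxo24, Fbxo31, Fbxo33, Fbxo45, Fbxo46, Fbxl12, Fbxl14 and Fbxl15. Members had a median of 3.0 annotated TSSs per gene, against 2.0 over protein-coding genes, and a gene with more TSSs covers more sequence in which a peak counts. The part of this in the count was not tested.

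A peak was shared with the TSS of another protein-coding gene in 17 of the 82 (20.7%, 13.4 to 30.7%), beside 24.7% of bound protein-coding genes, and in all 17 the other gene lay on the opposite strand. Fbxo genes held 8 of these, such as Fbxo36 with the ubiquitin ligase gene Trip12 and Fbxo45 with Wdr53. Among the 4 Fbxl genes, Fbxl12 shared its peak with the ubiquitin-like gene Ubl5 and Fbxl8 with Tradd, an adaptor of TNF signalling. In Ube2 there were 3 such genes, Ube2a, Ube2k and Ube2q1, and in Fbxw there was Fbxw5, with C8g. Which of both genes such a peak belongs to cannot be told apart in these data.

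Of the 38 members without a gene-proximal peak, 14 had a peak within 50 kb, 12 of these within 10 kb, and 24 had none so near. In 8 of the 14 the nearest peak lay within 1 kb of the TSS of another protein-coding gene. Fbxo15, Fbxo40, Fbxl22 and Fbxw4 had a peak inside the gene itself, and the nearest one in Fbxo15 also lay at a TSS of 1700034H14Rik.

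The motif words were searched in the 82 member peaks and in the 10073 peaks that are gene-proximal to any gene. The ETS word occurred in 21 member peaks (25.6%, 17.4 to 36.0%), beside 20.2% of all gene-proximal peaks, and YY1 in 7 (8.54%, 4.20 to 16.6%), beside 5.08%. SP/KLF was in 39 (47.6%, 37.1 to 58.2%), beside 50.7%, NFY in 20 (24.4%, 16.4 to 34.7%), beside 30.0%, and NRF1 in 4 (4.88%), beside 5.80%. For E-box (6 peaks, 7.32%), CRE (3, 3.66%) and the KAISO-like word (1, 1.22%) the shares of all gene-proximal peaks were 8.06%, 3.35% and 2.14%. Each interval held the share of all gene-proximal peaks. The TATA word was in 0 of the 82, which allows a share of up to 3.66%, and in 2.41% of all gene-proximal peaks, and the ZNF143-like word was also absent. Of the 7 peaks with the YY1 word, 4 were at Ube2 genes (Ube2g1, Ube2j2, Ube2q1 and Ube2v2) and 1 at Cul4b. A match to these letters is a description and not a measured factor.

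Genes of the same pathway under other names were read in the same way. Of 48 such genes, 43 had a gene-proximal peak (89.6%, 77.8 to 95.5%), again beside 39.6% of protein-coding genes. Upstream of the E2s, 7 of 8 E1 and E1-like genes had one, which lay 17 bp upstream at Uba1, the main E1 of ubiquitin. Uba7, the E1 of ISG15, had none within 10408 bp, and its E2 partner Ube2l6 lacked one too. Among E2s with other names, Cdc34, the classical E2 of F-box ligases, had a peak 87 bp upstream, and Ufc1, the E2 of UFM1, was the exception among 6, with a peak at 2442 bp.

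Of the 14 partners of cullins, 13 had a peak. The RING protein genes Rbx1 and Rnf7 were bound at 76 bp downstream and 53 bp upstream. Skp1a, the adaptor of F-box proteins, was bound at 24 bp upstream and Nedd8 at 15 bp downstream. The exchange factor Cand1 was bound at 106 bp upstream, and its relative Cand2, known from muscle, was the exception with a nearest peak at 34127 bp. All 9 genes of the COP9 signalosome, which takes NEDD8 off cullins, had a peak with its middle between 64 bp upstream (Cops4) and 58 bp downstream (Cops3). F-box proteins under other names had 5 of 7, with Skp2, Btrc, Ccnf, Kdm2a and Kdm2b bound and Ect2l and Lmo7 not.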

How the data were processed

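The authors mapped reads of both BAP1 precipitations to mm9 with Bowtie 1.0.0, and called peaks against input DNA with MACS, version 1.4.2 in the submitters' processing notes. The deposited list gives start and end of 13164 peaks in bp and nothing on their strength. The threshold and the rule that joined both samples are not given in the sources used here. Depth is unknown, each precipitation was sequenced once, and 0 columns were left unmapped.

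Peak middles (start + 100) were placed on GENCODE M1 TSSs (NCBIM37), leaving out the mitochondrial genome, with Python 3.11.15, numpy 2.4.6, pandas 2.3.3 and scipy 1.17.1. Shares carry 95% Wilson intervals. A count of 0 allows up to 3 counts of the total. Distances and the copy counts of 50-base words were tested on simulated data. The search for motif words was not. Sequences came from mm9, and motif shares in promoters from 32851 RefSeq promoters (GRCm38.p6).

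Named were every Cul and Fbxw gene, members without a peak, members with 2 or more, those at the 1 kb limit and well known members, some of which are not reported here. Members and lists were chosen with earlier results of these data known. Related genes in groups, the peaks of Cul7 and Fbxw7 and the Cul9 promoter were added after values were seen. Alternatives were the peak edge, windows of 500 bp, 2 kb and 5 kb, other TSS sets, merged peaks and other CpG settings.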

Additional observations from a re-analysis of the deposited data

How the results depend on the processing

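The share of members with a gene-proximal peak stayed within its Wilson interval under every alternative run, from 65.8% (500 bp window, or 1 TSS per gene) to 72.5% (5 kb), and the tandem Fbxw genes stayed at 0 in all of them. With 500 bp, Fbxw7, Fbxl19 and Fbxo11 lost their peak. With 5 kb, Ube2l6, Fbxl22, Fbxw10, Fbxo40 and Fbxo15 gained one. With 1 TSS per gene, Fbxl5, Cul5 and Cul4b lost theirs. The background of all protein-coding genes moved from 39.6% to 38.6% (500 bp), 40.4% (2 kb), 42.5% (5 kb) and 37.6% (1 TSS per gene). With RefSeq start sites matched to mm9, an alternative chosen after seeing the data, it was 44.3% of 15815 genes, members had 60 of 91 (65.9%) and tandem Fbxw genes 0 of 8, with Fbxw7 and Cul4b losing their peak among genes that could be matched. At these start sites the nearest peak also lay elsewhere for Cul3 (182 bp upstream), Cul5 (245 bp downstream), Cul7 (199 bp downstream), Fbxo5 (240 bp upstream), Ube2l6 (12330 bp), Ube2q2 (38757 bp), Ube2e2 (560922 bp), Fbxo17 (25040 bp) and Fbxw10 (26716 bp). For CpG-rich protein-coding genes a limit of 0.75 in place of 0.6 gave 75.7% in place of 71.0%. The peak list has no replicates, so no sample could be left out, and unknown depth means that a missing peak is not an absence of BAP1. No paired analysis was possible because the list used here does not separate both samples.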
